A study of Mus musculus with 2 samples.

Results

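Zbtb16 encodes PLZF, a transcription factor with a BTB domain and zinc fingers. The DNase-seq data of thymus were read here over this gene and 100 kb on each side. The gene is ENSMUSG00000066687.5 in GENCODE M21, at chr9:48654297-48836222 of mm10 (GRCm38) on the minus strand. It is 182 kb long and has 7 exons, and the window with its flanks is 382 kb. The peaks of both mice whose centre lay in this window merged into 20 sites, of 82799 such sites in the whole series. Zbtb16 is 1 of 21755 protein-coding genes that were counted the same way.

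The series holds 2 libraries, 1 per mouse, from whole thymus of 2 female B6CASTF1/J mice aged 36 days. B6CASTF1/J animals are first-generation hybrids of C57BL/6J and CAST/EiJ, and both mice belong to 1 untreated group. They are called mouse 1 and mouse 2 after their biological replicate numbers. No condition was compared, so the values describe these animals, with the spread between them, and no test was made.

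DNase I cuts DNA where nucleosomes do not cover it, and a peak marks a stretch that was cut often. A footprint is a short protected stretch inside such a region. PLZF is best known as the factor that directs the innate-like programme of invariant NKT cells, MAIT cells and some gamma-delta T cells, and it also marks precursors of innate lymphoid cells. Most thymocytes do not carry it, and the cells that do are a small population of the thymus. In a bulk library, a small number of cells with an open site and a weakly open site in many cells cannot be told apart.

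The thymocyte identity of the tissue was checked first. All 14 thymocyte marker genes, among them Cd3e, Rag1 and Ptcra, had a promoter peak in both mice, and none of 6 genes of tissues absent from thymus had one. Of 6 markers of innate-like and NK cells, 1 (Il2rb) had a promoter peak in both mice. B cell markers had one in both mice in 3 of 6, mesenchymal and endothelial markers in 4 of 6, epithelial markers in 2 of 6. Myeloid markers had one in both mice in 0 of 6, but Lyz2 and Itgax had one in mouse 1 alone and Flt3 in mouse 2 alone. Over all protein-coding genes the share with a promoter peak in both mice was 56.6%. The counts for B cell and for mesenchymal and endothelial markers were near it. The libraries held 59484 peaks in mouse 1 and 72913 in mouse 2 on the shorter of the 2 peak lists deposited for each. The signal of a peak is a height on a scale that the sources used here do not name. All values were within 0.1 steps of a whole multiple of 1 step, 0.00638 in mouse 1 and 0.00504 in mouse 2, which is why the scale is taken as normalised to depth. If the scale is RPM, 1 step is 1 read, and the libraries held 157 and 198 M reads.

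Sites were numbered from 1, farthest upstream, to 20, farthest downstream. The sequences that the results turn on are those of site 7, the strongest site of the window in both mice, and of 6 flank sites. Sites 2 and 20 were the strongest flank sites that held long footprints in both mice, and sites 1, 14, 17 and 19 held letters close to the core that CTCF binds. Each is the C57BL/6J reference sequence on the strand of the gene, so CAST/EiJ bases are not shown. Capitals mark the bases that lay in a footprint in both mice.

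Site 7 (intron 3, chr9:48740261-48740420, minus strand): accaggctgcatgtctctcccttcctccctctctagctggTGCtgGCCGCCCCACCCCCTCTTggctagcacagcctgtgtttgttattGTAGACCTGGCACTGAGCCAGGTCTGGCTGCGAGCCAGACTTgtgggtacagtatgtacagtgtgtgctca
Site 2 (upstream flank, chr9:48860581-48860780, minus strand): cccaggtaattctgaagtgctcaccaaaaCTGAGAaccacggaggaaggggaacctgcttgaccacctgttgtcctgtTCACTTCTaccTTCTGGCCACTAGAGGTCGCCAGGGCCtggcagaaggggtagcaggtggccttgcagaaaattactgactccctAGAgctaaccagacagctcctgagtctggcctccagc
Site 20 (downstream flank, chr9:48558641-48558820, minus strand): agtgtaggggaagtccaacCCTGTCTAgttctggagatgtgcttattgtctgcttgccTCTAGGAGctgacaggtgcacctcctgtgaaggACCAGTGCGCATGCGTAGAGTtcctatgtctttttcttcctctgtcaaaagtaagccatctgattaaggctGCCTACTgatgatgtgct
Site 1 (upstream flank, chr9:48894181-48894360, minus strand): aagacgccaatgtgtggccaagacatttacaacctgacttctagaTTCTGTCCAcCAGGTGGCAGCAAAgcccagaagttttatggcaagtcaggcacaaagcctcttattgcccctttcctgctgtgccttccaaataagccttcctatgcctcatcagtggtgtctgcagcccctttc
Site 14 (downstream flank, chr9:48646321-48646525, minus strand): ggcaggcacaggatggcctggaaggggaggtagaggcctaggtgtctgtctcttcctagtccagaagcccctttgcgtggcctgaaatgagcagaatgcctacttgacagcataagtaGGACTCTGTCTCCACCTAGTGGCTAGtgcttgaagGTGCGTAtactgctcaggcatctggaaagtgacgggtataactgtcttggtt
Site 17 (downstream flank, chr9:48586461-48586600, minus strand): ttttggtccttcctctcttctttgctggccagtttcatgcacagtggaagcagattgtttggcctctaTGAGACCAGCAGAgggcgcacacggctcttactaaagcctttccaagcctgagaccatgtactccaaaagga
Site 19 (downstream flank, chr9:48559878-48560080, minus strand): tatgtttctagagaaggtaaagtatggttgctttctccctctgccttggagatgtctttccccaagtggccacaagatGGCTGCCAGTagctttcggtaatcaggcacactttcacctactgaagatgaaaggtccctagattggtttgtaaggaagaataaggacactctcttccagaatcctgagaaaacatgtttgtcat

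The signal at the Zbtb16 promoter was low among promoters with a peak. GENCODE gives the gene 2 start sites, 277 bp apart, and the 5′-most of them is the zero point of all distances. Site 3 (chr9:48836001-48836420) covered the 5′-most start site and not the other one. Mouse 2 had a peak of signal 0.851 there. Mouse 1 had no peak on the shorter list and one of 0.440 on the longer, less stringent list. The lowest false discovery rate (FDR) of cutting within it was 7.77e-04 in mouse 1 and 1.99e-10 in mouse 2. Cutting at the start site was therefore listed in both animals, and the shorter list held it in 1 of them.

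This promoter is rich in CpG dinucleotides, a class that is open in most tissues. Within 500 bp of the start site its GC content was 68.4%, and its CpG count was 0.678 of that expected from its base composition. Of 9739 protein-coding genes with a CpG-rich promoter, 86.6% had a promoter peak in both mice, and 6.97% had one in mouse 2 alone, as Zbtb16 did. Over all protein-coding genes the share with a peak in both was 56.6%. A promoter peak is one that touches the 1000 bp on either side of a start site.

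Open promoters on the shorter list had a median signal of 4.94 in mouse 1 and 10.4 in mouse 2. On the longer list, 7.08% of promoters with a peak lay below Zbtb16 in mouse 1 and 16.0% in mouse 2. Among CpG-rich promoters alone these shares were 4.62% and 9.44%, with median signals of 5.63 and 13.3. The Zbtb16 promoter stood low in both animals by this measure.

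Few footprints at the promoter overlapped between the animals. Site 3 held 5 footprints in mouse 1 and 6 in mouse 2, and 1 pair of them overlapped. Over all footprints, 55.6% of those of mouse 1 and 45.2% of those of mouse 2 overlapped one of the other mouse. The 5 of mouse 1 lay outside its shorter-list peaks. Of the 17 such footprints of mouse 1 in the window, 4 overlapped a mouse 2 footprint. Site 4 (chr9:48835221-48835316), 1.0 kb into the gene in intron 1, had a signal of 0.413 in mouse 2 only. Mouse 1 had no peak on either list there and no base of significant cutting.

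The strongest site of the window lay deep in the gene, in intron 3. Site 7 was 95.9 kb downstream of the start site, with 1.40 in mouse 1 and 2.64 in mouse 2 as its signal (mean 2.02 ± 0.877 SD, n = 2). It ranked first among the shared sites in both mice. The lowest FDR of cutting in it was 5.25e-26 in mouse 1 and 1.85e-54 in mouse 2, the lowest in the window in each. Against all peaks of the same library it was ordinary, at percentile 55.4 of signal in mouse 1 and 67.5 in mouse 2.

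Site 7 also held the longest footprint of the window in mouse 1, with a mouse 2 footprint over nearly the same bases. They spanned chr9:48740289-48740331 in mouse 1, 43 bp, and chr9:48740290-48740331 in mouse 2, 42 bp, so that their ends lay within 1 bp of each other. Footprints at least this long were 1.30% of all footprints in mouse 1 and 2.32% in mouse 2. A further protected stretch of 18 bp in mouse 1 and 25 bp in mouse 2 lay nearer the 5′ end of the site. Of the 160 bases of site 7, 63 (39.4%) were in a footprint in both mice.

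The letters under the long footprint of site 7 repeat. On the gene strand it holds TGGCACTGAGCCA and, 4 bases on, TGGCTGCGAGCCA, in each of which the half-sites TGGC and GCCA stand 5 bases apart. This is the palindrome that nuclear factor I (NFI) proteins bind. All 13 bases of each lay in a footprint in both mice. The pattern was searched after the sequence of site 7 had been seen. At least 1 match was present in 840 of 82753 sites (1.02%), counted in their central 200 bp, and at least 2 in 11 of them. No other of the 20 sites around Zbtb16 held it.

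Other letters in site 7 match motifs of the list that was searched at all sites. The SP/KLF motif CCGCCC, bases 47 to 52 counted from the 5′ end on the gene strand, lay in the upstream footprint of both mice. Site 7 also held a pair of overlapping matches of the glucocorticoid receptor element, half-sites GNACA and TGTNC 3 bases apart. These were GTACAGTATGTAC at bases 136 to 148 and GTACAGTGTGTGC at bases 145 to 157. The element was present in 0.421% of all sites and in 1 of 20 here. Neither match had a base in a footprint of either mouse. A match of letters is a description and does not show which protein was bound.

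**Figure D1:**
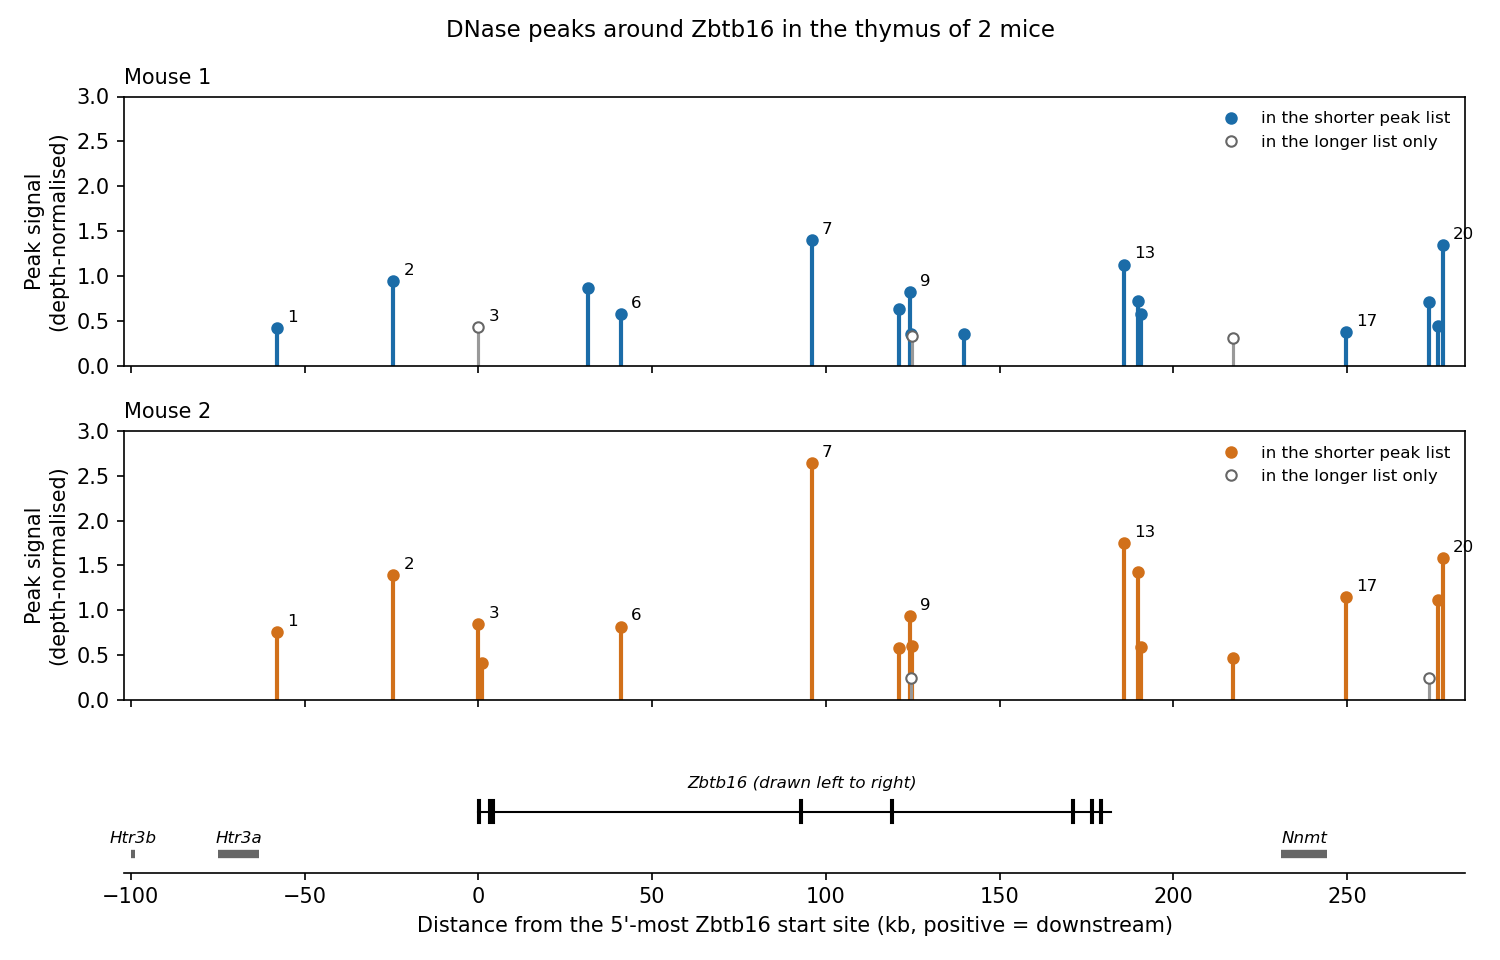
Peak signal (vertical axis, depth-normalised) of the 20 sites against distance from the 5′-most Zbtb16 start site (horizontal axis, kb), with 1 panel per mouse and the exons of Zbtb16 and its neighbours below. Filled points are peaks of the shorter list and open points are found on the longer list only. Site 7 in intron 3 is the highest point in both mice, and the promoter (site 3) reaches 0.440 and 0.851.

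Peaks in the window were equal in number between the mice. Mouse 1 had 16 and mouse 2 had 16, with 7 in the gene body, 2 in the upstream flank and 7 in the downstream flank in each. Their signals ran from 0.357 to 1.40 in mouse 1, with a median of 0.676, and from 0.413 to 2.64 in mouse 2, with a median of 0.894. The medians of the whole lists were 1.23 and 1.45. In mouse 1, 2 of 16 peaks exceeded their list's median, and in mouse 2, 3 of 16 did. Most openings around Zbtb16 were thus weaker than the middle peak of their library.

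The peaks of the gene body lay almost wholly in introns. In mouse 1, 2 were in intron 2, 1 in intron 3 and 4 in intron 4. In mouse 2, 1 each lay in introns 1, 2 and 3, 3 in intron 4 and 1 over exon 1. Intron 2 is 88.2 kb long and held 2 of the merged sites, or 0.227 per 10 kb. Intron 4, at 52.0 kb, held 5 sites, or 0.962 per 10 kb. The widest stretch of the gene body without a site, 54.9 kb, ran from site 6 at 41.0 kb to site 7 at 95.9 kb.

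Intron 4 carried a cluster of weak sites. Site 9 (chr9:48711941-48712160), 124.2 kb from the start site, had a signal of 0.823 in mouse 1 and 0.937 in mouse 2 (0.880 ± 0.0805 SD, n = 2). Site 8 (chr9:48715101-48715327), at 121.0 kb, had 0.638 and 0.584. Both were open in both mice, and site 8 was the only shared site with the higher value in mouse 1. Site 10 (chr9:48711601-48711720) had 0.364 in mouse 1 and only a longer-list peak of 0.252 in mouse 2. Site 11 (chr9:48711321-48711500) had the reverse, a longer-list peak of 0.332 in mouse 1 and 0.605 in mouse 2. Site 12 (chr9:48696411-48696520), at 139.8 kb, had 0.357 in mouse 1 and no peak in mouse 2. These 3 were seen on the shorter list of 1 animal each.

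Intron 2 had 1 shared site and 1 that was not. Site 6 (chr9:48795087-48795380), 41.0 kb from the start site, had a signal of 0.581 in mouse 1 and 0.821 in mouse 2. Site 5 (chr9:48804681-48804860), at 31.5 kb, had 0.874 in mouse 1 and no peak on either list in mouse 2. Its lowest FDR of cutting was 1.42e-08 in mouse 1 and 0.0421 in mouse 2. Among the sites of the gene body that only 1 mouse listed, site 5 had the highest signal.

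The flanks held 10 sites, several of them stronger than any intron site except site 7. Site 20 (chr9:48558641-48558820), 277.5 kb downstream of the start site, had a signal of 1.35 in mouse 1 and 1.58 in mouse 2 (1.46 ± 0.163 SD, n = 2). Site 13 (chr9:48650321-48650560), at 185.8 kb and just past the 3′ end of the gene, had 1.13 and 1.75 (1.44 ± 0.441 SD, n = 2). Site 2 (chr9:48860581-48860780), 24.5 kb upstream, had 0.951 and 1.39 (1.17 ± 0.311 SD, n = 2). Site 14 (chr9:48646321-48646525), at 189.8 kb, had 0.727 and 1.43. The order of sites 20 and 13 switched between the animals, and their means differed by less than either SD. Site 7 lay close to site 20 in mouse 1 and apart from it in mouse 2.

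The remaining flank sites were weaker. Site 1 (chr9:48894181-48894360), 58.0 kb upstream, had 0.428 in mouse 1 and 0.761 in mouse 2. Site 15 (chr9:48645421-48645543) had 0.587 and 0.594. Site 17 (chr9:48586461-48586600) had 0.377 and 1.15, and site 19 (chr9:48559878-48560080) had 0.453 and 1.12. Those last 2 sites had the highest log2 ratios of mouse 2 to mouse 1 among the 12 shared sites, 1.62 and 1.30. Site 16 (chr9:48618814-48618962) had a longer-list peak of 0.319 in mouse 1 and 0.474 in mouse 2. Site 18 (chr9:48562386-48562640) had 0.715 in mouse 1 and a longer-list peak of 0.247 in mouse 2.

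The neighbouring protein-coding genes had no promoter peak in mouse 1. The flanks reach Nnmt, which encodes nicotinamide N-methyltransferase, and Htr3a and Htr3b, which encode serotonin receptor subunits. Nnmt and Htr3a had 0 peaks in their bodies and no promoter peak in either mouse. Htr3b had no promoter peak in mouse 1 and one of signal 0.514 in mouse 2. The antisense gene Gm32335, upstream of Zbtb16, had 0 peaks in both.

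Sharing of peaks between the mice was near that of the libraries as a whole. Of the 16 peaks in each mouse, 12 (75.0%, Wilson 95% interval 50.5% to 89.8%) overlapped a peak of the other. Over all peaks the share was 80.8% of the mouse 1 list and 66.1% of the mouse 2 list. Of the 20 sites, 4 were on the shorter list of mouse 1 alone and 4 on that of mouse 2 alone. Of these 8 sites, 5 were on the longer lists of both animals and 7 touched significant cutting in both. The same shares were not counted over the whole series, so these counts describe the window only. The longer list held 23 peaks of the window in mouse 1 and 32 in mouse 2 (27.5 ± 6.36 SD, n = 2). The interval covers counting error only.

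Signals of shared peaks were higher in mouse 2, as they were across the genome. Over the 12 shared peaks the median log2 ratio of mouse 2 to mouse 1 was 0.59 (SD 0.52 across peaks), from -0.13 at site 8 to 1.62 at site 17. Mouse 2 was higher at 11 and lower at 1. Over all 46907 shared peaks the median was 0.75 with an SD of 0.76. So 5 of the 12 lay above the genome-wide median. The SD was smaller around Zbtb16 than over all pairs, but the 2 sets were not matched for GC content.

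That genome-wide ratio moved with base composition. With all shared peaks cut into 5 groups of equal size by GC content, the median log2 ratio was 0.05, 0.29, 0.56, 0.93 and 1.43 from the lowest to the highest group. For the 12 shared Zbtb16 peaks the median was 52.0% GC, and over all pairs it was 56.1%. Set against the median of the group with its own GC content, 8 of the 12 lay above it. The log2 ratio at the GC-rich promoter, from the longer lists, was 0.95. The part of base composition in these ratios was not tested further.

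**Figure D2:**
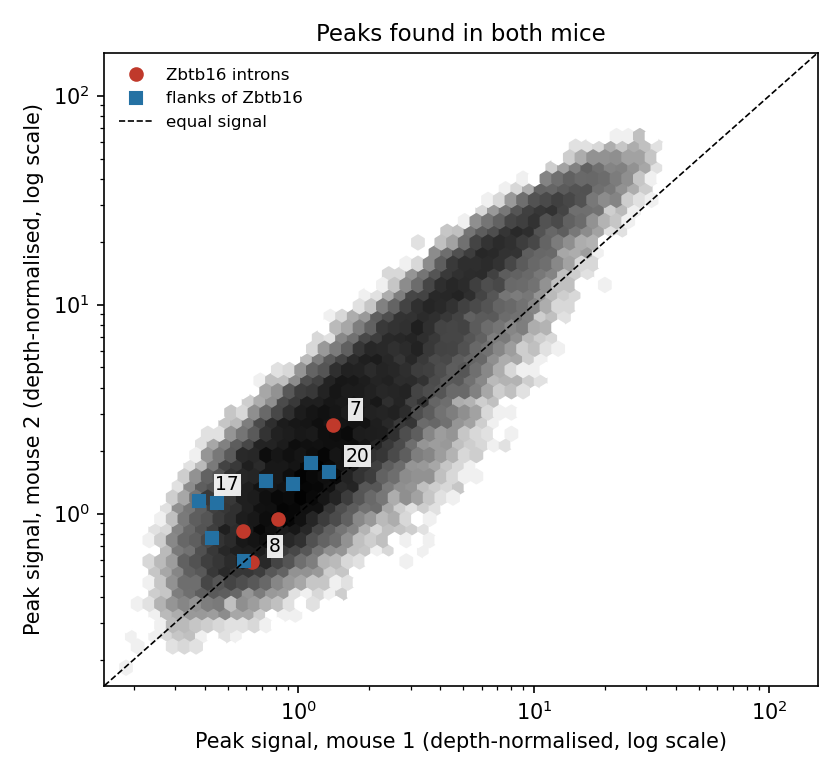
Peak signal in mouse 2 (vertical axis, log scale) against mouse 1 (horizontal axis, log scale) for peaks found in both mice, with all 46907 pairs as grey density and the 12 pairs around Zbtb16 as red circles (introns) and blue squares (flanks). Numbers name 4 sites; site 8 lies below the line of equal signal and the other 11 pairs lie above it, within the cloud of all pairs.

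Footprints of the 2 mice overlapped in part. Mouse 1 had 61 and mouse 2 had 73, of which 31 and 35 lay in the gene body. Of the mouse 1 footprints 31 (50.8%, Wilson 95% interval 38.6% to 62.9%) overlapped a mouse 2 footprint, against 55.6% of all its footprints. Of the mouse 2 footprints 27 (37.0%, 26.8% to 48.5%) overlapped a mouse 1 footprint, against 45.2%. No footprint had the same start and end in both animals, a share that was not counted over all footprints. Lengths ran from 7 to 43 bp in mouse 1, with a median of 8 bp, and from 7 to 42 bp in mouse 2, with a median of 10 bp. The medians over all footprints were 10 and 11 bp.

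Most peaks held a footprint, in the window as in the whole lists. In mouse 1, 15 of 16 peaks (93.8%) did, against 87.0% of its whole list, and in mouse 2, 16 of 16 (100%) did, against 89.7%. At 15 of the 20 sites both mice had one, a share that was not counted over all sites. Site 10 was the only site with none in either. Of the footprints, 44 in mouse 1 (72.1%) and 44 in mouse 2 (60.3%) touched a shorter-list peak, against 64.8% and 63.0% of all footprints.

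Several flank sites held long footprints in 1 or both mice. At site 2 the footprint was 38 bp long in mouse 1, and in mouse 2 footprints of 29 and 8 bp covered nearly the same stretch. At site 14 it was 28 bp in mouse 1 and 42 bp in mouse 2. At site 19 mouse 2 had a footprint of 42 bp, where mouse 1 had one of 10 bp. At site 1 mouse 2 had one of 34 bp and at site 17 one of 31 bp, over shorter ones of 14 and 13 bp in mouse 1. The footprints of the 2 animals overlapped at each of these sites, while their listed lengths differed. In mouse 2, footprints at least as long as the longest of each site were 2.32% to 9.30% of all footprints. In mouse 1 such shares were 2.48% for site 2 and 7.33% for site 14. For the shorter ones at sites 1, 17 and 19 they were 29.2%, 34.9% and 53.4%. Whether the window held more long footprints than the libraries was not tested.

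The long footprints at these 5 sites lay over letters close to the core bound by CTCF, the factor that anchors chromatin loops. The core was searched with no mismatch and with 1 mismatch, a search added after the sequences had been seen. Site 1 (CCACCAGGTGGC) and site 17 (CCAGCAGAGGGC) matched with 0 mismatches. Site 2 (CCACTAGAGGTC), site 14 (CCACTAGGTGGA) and site 19 (CCACAAGATGGC) matched with 1. Not every long footprint of the window lay over such a core. Mouse 2 also had a footprint of 30 bp at site 16, in the downstream flank, and one of 32 bp at site 9, in the gene body. Both overlapped a mouse 1 footprint, and neither site held the core with up to 1 mismatch. Cores with more mismatches were not searched, so this contrast depends on that limit. The core read along the gene strand at sites 1, 2, 17 and 19 and along the opposite strand at site 14. In mouse 2 all 12 bases of each of the 5 matches lay in a footprint. In mouse 1, 11 of the 12 did at site 1, 12 at sites 2 and 14, 8 at site 17 and 3 at site 19.

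All 5 matches were in the flanks, with 2 upstream and 3 downstream, and none was in the gene body. Such a core, with up to 1 mismatch, was present in 25.0% of the 20 sites and in 18.5% of all sites in their central 200 bp. With no mismatch the shares were 10% and 5.80%, and with the CTCF pattern of the motif list they were 15.0% and 17.7%. Each of these 3 pairs of shares differs by less than 2 of the 20 sites.

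The footprint of site 20 covered different letters. It was 22 bp long in mouse 1 and 28 bp in mouse 2, and it held GCGCATGCG, the palindrome bound by NRF1, a regulator of genes for mitochondria and growth. All 9 bases lay in the footprint in both mice. This pattern too was searched after the sequence had been seen, and it was present in 0.781% of all sites. Site 13, by contrast, was among the strongest sites and had only short footprints, up to 13 bp in mouse 1 and 7 bp in mouse 2.

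**Figure D3:**
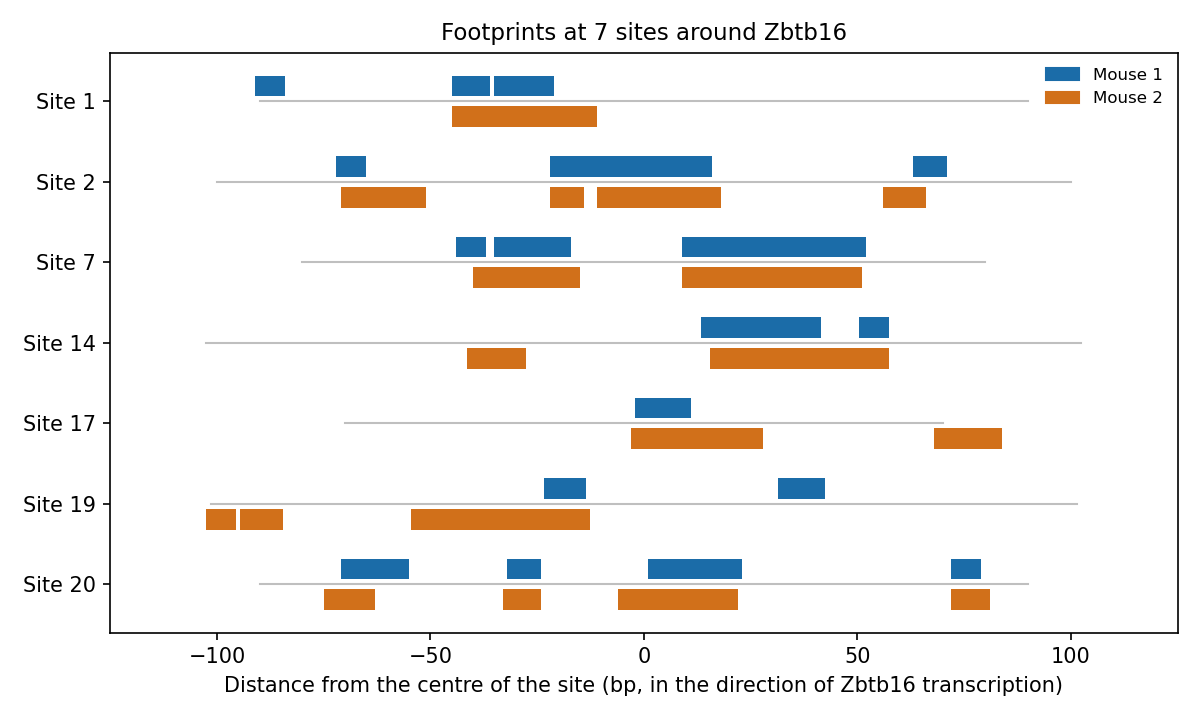
Footprints (bars, blue for mouse 1 above the line and orange for mouse 2 below it) at 7 sites around Zbtb16, by distance in bp from the centre of each site in the direction of transcription, with the extent of the site as a grey line. The longest pair of bars is that of site 7, 43 bp in mouse 1 and 42 bp in mouse 2, and at sites 1, 17 and 19 the bar of mouse 2 is longer than that of mouse 1.

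Motifs of factors known to act in innate-like T cells were searched in the central 200 bp of the 20 sites. Site 3, at the promoter, is 420 bp long, so its outer parts were not searched. The EGR motif, bound by the factors that T cell receptor signalling induces ahead of PLZF, was present at 0 of 20 sites, against 5.45% of all sites. RUNX motifs were at 4 of 20 (20%, against 22.3% of all), at sites 5, 8, 10 and 18, and none of them lay wholly in a footprint. E protein motifs were at 9 of 20 (45.0%, against 37.5%). GATA motifs were at 2 (10%, against 5.66%) and SP/KLF motifs at 1 (5.00%, against 23.8%). With 20 sites each site is 5.00%, and EGR, RUNX, E protein and GATA shares were within 2 sites of those of all sites. A window with no match says only that these letters were absent from it.

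Cutting beyond the peaks was also listed. Regions of significant cutting, runs of bases with an FDR under 0.05, numbered 39 in mouse 1 and 67 in mouse 2. They covered 6707 and 7724 bp, which was 1.76% and 2.02% of the window, against 1.32% and 1.52% of the autosomes and X. Of them 24 in mouse 1 (61.5%) and 51 in mouse 2 (76.1%) touched no shorter-list peak, against 74.4% and 69.4% of all regions. In mouse 1, 12 (30.8%) touched no peak of either list, and in mouse 2, 10 (14.9%), against 32.3% and 25.9%. The excess of mouse 2 was in short runs, since the median region was 182 bp in mouse 1 and 20 bp in mouse 2. With runs within 20 bp joined the numbers were 26 and 35. Regions that reached an FDR under 0.001 numbered 17 in mouse 1 and 16 in mouse 2. With only the runs under 0.001 kept and merged again, these regions broke into 33 and 23 pieces.

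The density of peaks at Zbtb16 was ordinary for a protein-coding gene. The window held 0.419 peaks per 10 kb as a mean of both mice, against a median of 0.444 over 21755 genes, at percentile 47.9. The gene body held 0.385 per 10 kb in each mouse, against a median of 0.253. Long genes have fewer peaks per length, and among 2361 genes whose body length was within 2 times that of Zbtb16 it stood at percentile 64.2 for the window and 69.5 for the body.

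The genes most like Zbtb16 in this count were open at their promoters. With 7 body peaks in each mouse and the nearest lengths, these were Atp8b4, a lipid flippase gene, Cblb, which encodes a ubiquitin ligase that restrains T cell activation, and Prr5l, which encodes a partner of mTOR complex. All 3 had 7 body peaks in both mice. The promoter signal was 1.58 and 1.64 for Atp8b4, 13.1 and 30.9 for Cblb, and 0.823 and 2.67 for Prr5l, in mouse 1 and mouse 2. Each was above Zbtb16 in both animals. Of 2361 genes of similar length 23 had these same counts, and 2 of them had no promoter peak in either mouse.

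Most other genes of the innate-like lineage programme were open at their promoters. The list held 38 genes, 37 of which matched a protein-coding gene, Zbtb16 included. Of these 37, 34 (91.9%) had a promoter peak in both mice, against 56.6% of all protein-coding genes and 86.6% of those with a CpG-rich promoter. The list is not particular to innate-like cells, since Tcf7 and Bcl11b are also among the 14 thymocyte markers above. Of the 6 markers of innate-like and NK cells, 1 had a promoter peak in both mice. Zbtb16 and Tbx21, which encodes the T-bet factor of type 1 effector cells, had one in mouse 2 alone. Klrb1c, which encodes the NK1.1 receptor, had none in either. Of the markers that are not among the 37, Nkg7 had one in mouse 1 alone and Ncr1 had none in either. Tbx21 had a signal of 1.46 in mouse 2 and 0.549 on the longer list of mouse 1. On the longer list 36 of the 37 genes and 4 of the 6 markers were open in both mice.

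Promoter strength varied among the other members. Promoter signals of Egr2 were 10.6 in mouse 1 and 18.0 in mouse 2. Cbfb, which encodes the partner of RUNX proteins, had 20.2 and 37.7. Il17rb, a receptor gene of innate-like T cells, had 1.05 and 2.03, and Icos, a co-stimulatory receptor gene, had 4.27 and 2.91. No member with a shorter-list promoter peak in mouse 2 lay below the 0.851 of Zbtb16.

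Body density in this list varied widely. Tcf7, with 15.0 peaks per 10 kb, Id3 with 13.3 and Egr2 with 10.4 were the densest, and all 3 are shorter than Zbtb16. The median was 1.76. Klrb1c and Il17rb had 0 and Cbfb 0.211. Zbtb16 was the sixth lowest of 37 by this measure.

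**Figure D4:**
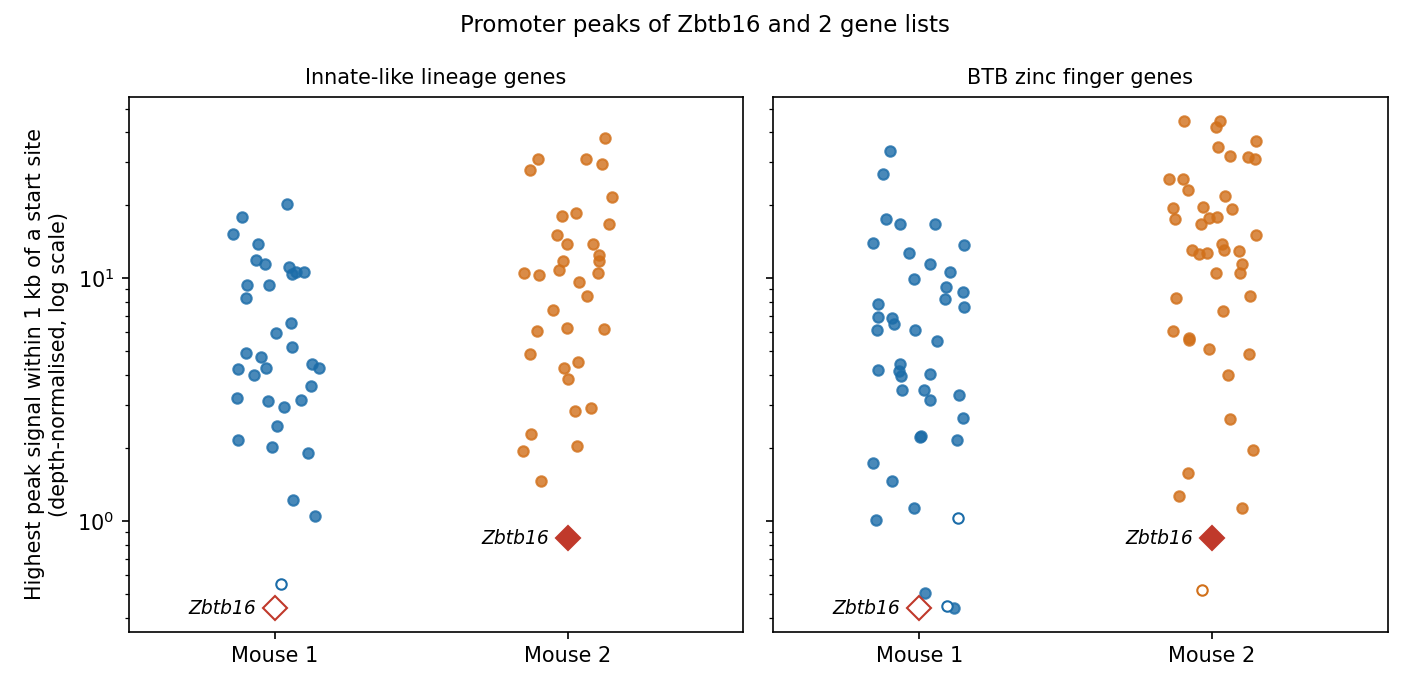
Highest peak signal within 1 kb of a start site (vertical axis, log scale) in mouse 1 and mouse 2 for the innate-like lineage genes (left) and the BTB zinc finger genes (right), with 1 point per gene that had a promoter peak. Filled points are on the shorter list and open points on the longer list only; Zbtb16 (red diamonds, 0.440 and 0.851) is at or near the lowest point in each column.

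Zbtb16 also stood low within its own gene family. The list held 46 genes, those whose symbol starts with Zbtb and 5 relatives such as Bcl6 and Hic1; by this rule it includes Zbtb8os, which is a neighbour of Zbtb8a named for its place. Of the 46, 41 (89.1%) had a promoter peak in both mice, against 56.6% of all protein-coding genes and 86.6% of those with a CpG-rich promoter. Zbtb16, Zbtb42 and Zbtb8a had one in mouse 2 alone, and Zbtb32 and Zbtb8b had none in either. Mouse 2 signals were 1.96 for Zbtb42 and 1.27 for Zbtb8a. No member with a promoter peak on the shorter list of mouse 2 lay below Zbtb16, and on the longer list Zbtb8b did, at 0.519. In mouse 1 Zbtb7c had the same 0.440 as Zbtb16.

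Members known from other T cell fates lay above Zbtb16, as did most of the family. They were named after their values were seen. Zbtb7b, which encodes the helper-lineage factor ThPOK, had 2.16 in mouse 1 and 4.88 in mouse 2 as its promoter signals, with 18 and 7 body peaks. Bcl6, the factor of follicular helper T cells, had 3.15 and 6.05, with 5 and 18 body peaks. Zbtb1, needed for early lymphoid development, had 3.48 and 10.5. The body peaks of Zbtb7b and Bcl6 differed between the mice in opposite directions, while Zbtb16 had 7 in each.

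Body density also varied within the family. Zbtb22 had 10.2 peaks per 10 kb, Hic1 10.1 and Zbtb7b 7.30. Zbtb26, Zbtb3, Zbtb24, Zbtb5 and Zbtb8b had 0. The median was 0.734, and Zbtb16 was 15th from the lowest.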

How the data were processed

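Per the notes deposited beside the data, the authors made peaks and cut rates per library from filtered mm10 alignments, and footprints from both. Names of the aligner and callers were not given in the sources used here. Each peak's deposited signal is a height whose scale was likewise not given; it was taken as normalised to depth because its values are whole multiples of 1 step per library. The p-value column that the authors deposited with the cut rates is an FDR, listed only below 0.05. The deposited footprints carry no value of their own, so only positions were used. Each library has a pair of peak lists of different stringency; the shorter was used, the longer as an alternative.

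A peak, footprint or run belonged to the window when its centre did. Overlap means at least 1 bp. Touching runs of cutting were merged into regions. Sites are merged peaks of both mice; motif shares use their central 200 bp on both strands. The genes named are all sites of the window, its neighbours, and the list members with the 3 highest and lowest densities or without a promoter peak; other list members were named after their values were seen. Members, lists and motifs were chosen with earlier results of these data known, and the NFI, NRF1 and CTCF core searches after the site sequences were seen. Zbtb16 has no entry in the RefSeq promoter table used. Scripts (Python 3.11.15, pandas 2.3.3, pysam 0.24.0) were tested on simulated data. Alternatives covered the list, window, overlap, reference and each mouse left out.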

Additional observations from a re-analysis of the deposited data

How the results depend on the processing

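With 1 group of 2 mice no result has a test, so the alternatives show only how far a value moves. The 16.0 peaks of the window became 27.5 with the longer list, 2.50 among the stronger 50% of peaks and 10 with 10 kb flanks, and stayed at 16.0 with either mouse left out. The 7 peaks of the gene body became 13.5 and 1.00 with the first pair of changes, and stayed at 7 with either mouse left out. Shared peaks of mouse 1 rose from 75.0% to 91.3% with the longer list and 100% (2 of 2) among stronger peaks, and other settings for either mouse lay inside the counting interval. The density percentile of 47.9 was 51.8 with 10 kb flanks, 57.0 for the body alone, 64.2 among genes of similar length, 53.2 with the longer list, and 45.8 to 50.7 with a mouse left out. Footprints averaged 67.0, 44.0 when they had to touch a peak, and 61.0 to 73.0 with a mouse left out; sharing fell to 27.9% of mouse 1 and 23.3% of mouse 2 footprints with overlap of at least 50% of each, and was 52.3% of mouse 2 footprints that touch a peak. Regions of cutting averaged 53.0, 30.5 after joining runs within 20 bp and 39.0 to 67.0 with a mouse left out. Keeping only runs with an FDR under 0.001 gave a mean of 28.0 pieces, which came from fewer regions. The bases of cutting averaged 7216, 3778 at the stricter FDR and 6707 to 7724 with a mouse left out. Promoter counts of both gene lists stayed within 1.5 times, at 34.0 to 36.0 and 41.0 to 44.0 with a mouse left out. The signal ratio relative to all pairs, -0.16 on the log2 scale, ran from -0.25 to 0.15 over its alternatives, within the 0.52 spread of the peaks, and had the opposite sign with a reference of the same GC content. Zbtb16 had a promoter peak in both mice only with the longer list. Apart from changes of construction (fewer or more peaks, genes or bases counted), the cause was not tested. No paired analysis was possible because both libraries belong to 1 group.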
